A study of Mus musculus with 20 samples.

Results

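Transcription of 10 neighboring genes of mouse chromosome 1 was followed through 24 h of IKZF1 induction in a pre-B cell line. The genes are, in order of position, Lrrfip1, Rbm44, Ramp1, Ube2f, Scly, Espnl, Klhl30, Ilkap, Hes6 and Per2. They were chosen by name as neighbors on the chromosome, all 10 were found among the 56239 gene identifiers counted, and they span 460.588 kb of GRCm38 (mm10), from 90998737 to 91459324. The first 7 are on the plus strand and Ilkap, Hes6 and Per2 are on the minus strand. The study shows this locus for Lrrfip1, Ramp1 and Espnl, which it classes as fast repressed from these same libraries. That these genes fell early was thus known when the locus was chosen. The study's view of the locus also holds tracks of open chromatin, histone acetylation, and binding of IKZF1 and of CHD4, a NuRD subunit. It further lists Ramp1 among fast repressed genes linked to super-enhancers (large groups of enhancers). Those assays were not analysed here. The question was how the timing and the depth of repression compare between genes that share a stretch of chromosome.

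The cells were B3, a mouse pre-B line derived from a lymphoma and transduced by retrovirus with Ikaros-ERt2, in which IKZF1 (Ikaros) is fused to a hormone-binding domain that keeps the protein out of the nucleus until 4-hydroxytamoxifen (4-OHT) is given. All 20 libraries carry this construct. The libraries at 0 h, 2 in number, came from cells without 4-OHT, and the others from cells given 500 nM 4-OHT for 0.5, 1, 2, 6, 12, 15, 18, 21 or 24 h, with 2 replicates per time point and 10 time points in all. No library came from cells that received 4-OHT without the construct, so that effects of 4-OHT and of IKZF1 cannot be told apart, and the labels do not say whether the line is a clone or whether replicates are separate cultures. For the pair at 0 h, on which every fold change rests, the sample descriptions and the names in the count table number the libraries in different ways, and repeat runs of 1 culture cannot be told apart from separate ones. RNA bound to chromatin, which is rich in transcripts still being made, was sequenced and counted over whole genes, introns included. In such bulk samples fewer cells that transcribe a gene and less transcription per cell cannot be told apart.

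Libraries held 33296158 to 46868954 counts (median 40943260). Of 10 pre-B marker genes, 8 reached 1 CPM on average at 0 h (CPM is a count scaled to the size of its library), whereas Rag1 and Rag2 were at 0 in both 0 h libraries. Of 10 markers of other cells, 2 reached 1 CPM, 3 were at 0 in both 0 h libraries, and their summed level of 339 to 341 CPM at 0 h was nearly all Pecam1, which passed the test as lower at 2 h (338 CPM at 0 h, 141 CPM at 2 h and 415 CPM at 24 h). Of the 4 tested, Csf1r was called down from 15 h on (-1.52 at 24 h) and Klrb1c up from 18 h on (1.96 at 24 h), both log2 fold changes of genes at low counts. The sum ranged from 125 to 436 CPM over all libraries, and its part in the results was not tested. Replicates were least alike at 12 and 18 h. A chi-square between their counts, divided by its degrees of freedom, came to 9.95 and 14.9 there and to 1.26 to 4.78 elsewhere.

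IKZF1 is a zinc finger protein needed for lymphocyte development. It binds DNA at sites with a GGGAA core and is found together with the NuRD complex, which removes acetyl groups from histones and moves nucleosomes, and it can lower or raise transcription depending on the gene. The 10 genes have unrelated known roles. Ramp1 encodes a membrane partner of the calcitonin receptor-like receptor that turns it into the receptor for CGRP, a neuropeptide. Lrrfip1 encodes a nucleic acid-binding protein that interacts with flightless, Ube2f an enzyme that attaches the ubiquitin-like protein NEDD8, and Scly the lyase that recovers selenium from selenocysteine. Espnl encodes an espin-like actin-bundling protein, Klhl30 a kelch-like protein, Rbm44 an RNA-binding protein of germ cells and Ilkap a phosphatase that binds integrin-linked kinase. Hes6 encodes a basic helix-loop-helix protein that opposes HES1, and Per2 a core repressor of the circadian clock.

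The 250 bases upstream of annotated starts are shown for the 3 genes that were lower by more than 2-fold within 2 h (Lrrfip1, Ramp1 and Espnl). They are also shown for the 2 genes that lie between Ramp1 and Espnl (Ube2f, of which only the first start is printed, and Scly). Sequences are from RefSeq on GRCm38.p6, read 5′ to 3′ on the plus strand, on which all 5 genes lie. Capitals mark GGGAA on either strand, which reads TTCCC when it is on the minus strand.
Lrrfip1, start 1, chr1:90998477-90998726: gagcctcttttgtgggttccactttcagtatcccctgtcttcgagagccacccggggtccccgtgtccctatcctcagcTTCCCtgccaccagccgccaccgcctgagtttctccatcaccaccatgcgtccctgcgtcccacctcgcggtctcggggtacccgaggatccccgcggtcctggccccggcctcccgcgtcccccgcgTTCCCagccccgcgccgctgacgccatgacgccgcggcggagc
Lrrfip1, start 2, chr1:91053194-91053443: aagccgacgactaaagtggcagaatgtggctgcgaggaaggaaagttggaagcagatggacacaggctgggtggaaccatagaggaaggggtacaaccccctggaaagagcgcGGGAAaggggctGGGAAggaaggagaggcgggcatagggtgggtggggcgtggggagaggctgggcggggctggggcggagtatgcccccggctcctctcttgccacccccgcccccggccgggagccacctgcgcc
Ramp1, chr1:91179572-91179821: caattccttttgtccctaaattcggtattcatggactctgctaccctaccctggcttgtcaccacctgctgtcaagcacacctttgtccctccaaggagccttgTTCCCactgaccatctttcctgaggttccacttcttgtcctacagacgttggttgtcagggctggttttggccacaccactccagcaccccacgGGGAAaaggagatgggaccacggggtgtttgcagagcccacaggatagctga
Ube2f, start 1, chr1:91250054-91250303: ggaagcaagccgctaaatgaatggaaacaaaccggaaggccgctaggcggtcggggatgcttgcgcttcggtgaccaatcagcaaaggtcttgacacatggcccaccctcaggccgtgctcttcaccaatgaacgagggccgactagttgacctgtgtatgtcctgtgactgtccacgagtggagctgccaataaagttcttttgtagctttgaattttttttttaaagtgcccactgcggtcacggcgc
Scly, chr1:91298088-91298337: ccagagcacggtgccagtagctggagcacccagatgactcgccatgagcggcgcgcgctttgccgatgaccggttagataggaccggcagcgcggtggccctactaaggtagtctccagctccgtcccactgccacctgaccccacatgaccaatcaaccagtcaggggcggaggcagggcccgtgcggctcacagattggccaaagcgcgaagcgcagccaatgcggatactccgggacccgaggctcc
Espnl, chr1:91321825-91322074: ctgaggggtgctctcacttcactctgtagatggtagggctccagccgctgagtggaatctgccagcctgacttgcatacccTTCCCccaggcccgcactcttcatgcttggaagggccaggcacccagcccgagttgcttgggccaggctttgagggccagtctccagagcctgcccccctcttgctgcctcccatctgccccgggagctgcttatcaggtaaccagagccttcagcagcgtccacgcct
Both Lrrfip1 windows and the Ramp1 window held 2 matches each, the Espnl window held 1, and those of Scly and of the first Ube2f start held 0. A second Ube2f start had 1 match, and the 2 Hes6 starts had 2 and 0. Among 32851 windows of the same length, 56.2% held GGGAA at least once and 21.2% at least 2 times. The longer TGGGAA, which contains GGGAA, occurred in 21.6% of windows, and 1 time each in both Lrrfip1 windows and the Ramp1 window. The match of a few letters is a description of these windows and does not show binding. In all, 6 of the 10 genes matched the RefSeq table.

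Before induction the genes differed widely in level. Per kb of gene length, the mean level at 0 h was 6.78 ± 0.0149 CPM per kb for Ilkap (SD, n = 2, as for all values below), 2.80 ± 0.0393 for Hes6, 2.24 ± 0.0207 for Lrrfip1, 2.00 ± 0.0531 for Ube2f and 1.52 ± 0.0381 for Ramp1. Espnl had 0.825 ± 0.00140 CPM per kb, Scly 0.708 ± 0.0197, Per2 0.398 ± 0.0109, Klhl30 0.0501 ± 0.0122 and Rbm44 0.00212 ± 0.00176. No neighbors in this order overlapped in their ranges at 0 h. Klhl30 rested on 9 to 35 counts per library and Rbm44 on 0 to 7. Rbm44 had 44 counts over the 20 libraries, was at 0 in 3 of them and was not tested, as it did not reach 10 counts in 2 libraries.

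**Figure D1:**
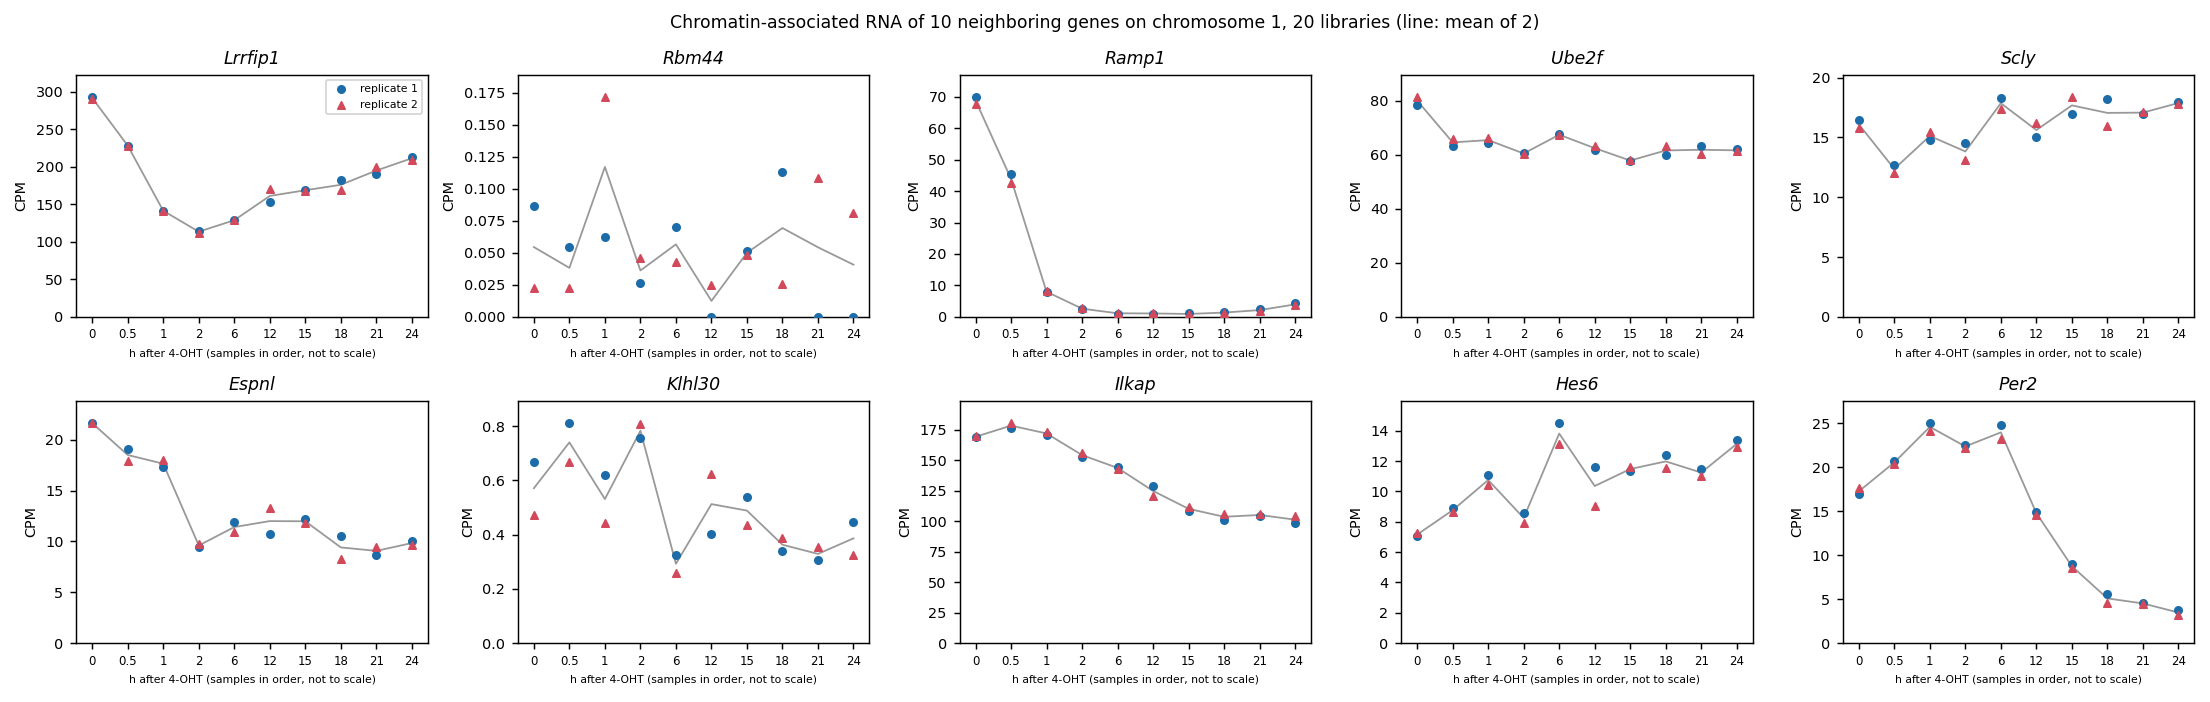
Level of each of the 10 genes in CPM (vertical axes, from 0, each with its own scale) in the 20 libraries against hours after 4-OHT, with points for the replicates and a line through their mean. Ramp1 dropped from 68.8 CPM at 0 h to 0.917 CPM at 15 h, Lrrfip1 dipped to 113 CPM at 2 h and rose again, and Per2 rose before it fell to 3.48 CPM at 24 h.

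Repression differed in timing and depth from gene to gene. A gene was called changed at an adjusted p under 0.01 and a fold above 2 in edgeR's quasi-likelihood test over 16601 genes. Of the 9 genes tested, 0 were called down at 0.5 h, where 0.410% of all genes tested were. At 1 h 2 were called down (Lrrfip1 and Ramp1), against a background of 4.84%, and at 2 h 3 (Lrrfip1, Ramp1 and Espnl), against 6.91%. Because these genes were already known from the same libraries to fall early, the early counts are no support for an excess over the background. At 6 h 2 were again called down (Lrrfip1 and Ramp1), against 9.13%. Ramp1 was the 1 gene called at 12 h (background 9.92%) and at 15 h (13.1%). From 18 h on 3 were called (Ramp1, Espnl and Per2), with a background of 17.6% (18 h), 19.4% (21 h) and 20.1% (24 h). None of the 9 was called up at any of the 9 time points. The share of all genes called up was 0.0542% (0.5 h), 2.33% (1 h), 6.25% (2 h), 10.9% (6 h), 13.2% (12 h), 15.3% (15 h), 19.1% (18 h), 20.1% (21 h) and 20% (24 h). Over the whole time course 4 of the 9 passed the test of all time points together with a fold above 2 (Lrrfip1, Ramp1, Espnl and Per2), against 51.9% of all genes, so that the share of the 9 lay near the background. The median log2 fold change of the 9 was -0.22 at 2 h and -0.57 at 24 h, while that of all genes was 0.03 and -0.01. Each median of the 9 is the value of a single gene that was not called, Scly at 2 h and Klhl30, with few counts, at 24 h.

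Ramp1 (ENSMUSG00000034353, chromosome 1, 91179822 to 91225196, 45.375 kb) had the deepest fall of the 9 at every time point. The 2 replicates gave 70.1 and 67.6 CPM (0 h), 45.3 and 42.5 (0.5 h), 7.90 and 8.08 (1 h), and 2.43 and 2.78 (2 h). They gave 1.03 and 1.23 CPM (6 h), 1.01 and 1.15 (12 h), 1.08 and 0.752 (15 h), 1.58 and 1.14 (18 h), 2.37 and 1.93 (21 h), and 4.29 and 3.61 (24 h). All 18 induced libraries were below both 0 h libraries, and up to 2 h no time point overlapped the one before it. The mean was 63.7% of its 0 h level at 0.5 h, 11.6% at 1 h, 3.78% at 2 h and 1.33% at 15 h, where it rested on 42 and 31 counts against 3243 and 3003 (0 h). The log2 fold change was -0.65 at 0.5 h (SE 0.07, adjusted p = 8.21e-07, under the fold limit), -3.11 at 1 h (SE 0.08), -4.72 at 2 h (SE 0.10), -6.23 at 15 h (SE 0.12) and -4.13 at 24 h (SE 0.09). Among all 16601 genes tested, Ramp1 ranked 815 by fall at 0.5 h, 57 at 1 h, 28 at 2 h and 198 at 24 h. Among the 12056 of them that averaged at least 1 CPM, it ranked 216 at 0.5 h, 14 at 1 h, 5 at 2 h and 80 at 24 h.

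Lrrfip1 (ENSMUSG00000026305, 90998737 to 91128944, 130.208 kb, the longest of the 10) fell early and moderately. Replicates gave 293 and 290 CPM (0 h), 228 and 228 (0.5 h), 141 and 141 (1 h), and 115 and 112 (2 h). Later they gave 129 and 129 CPM (6 h), 152 and 170 (12 h), 169 and 168 (15 h), 183 and 169 (18 h), 190 and 200.1 (21 h), and 213 and 209 (24 h). The lowest libraries were those at 2 h, and every induced library stayed below both at 0 h. The level was 38.9% of its 0 h mean at 2 h and 72.4% at 24 h. The log2 fold change was -0.35 at 0.5 h (SE 0.04), -1.05 at 1 h (SE 0.04), -1.36 at 2 h (SE 0.05) and -1.18 at 6 h (SE 0.04), and from 12 h on it lay between -0.86 and -0.47, with an adjusted p of at most 3.35e-09 but a fold under 2. The call at 1 h was lost in a test against a 2-fold change.

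Espnl (ENSMUSG00000049515, 91322075 to 91348306, 26.232 kb) fell mainly between 1 and 2 h. Its replicates gave 21.7 and 21.6 CPM (0 h), 19.1 and 17.9 (0.5 h), 17.3 and 18.0 (1 h), and 9.45 and 9.76 (2 h). They stayed between 8.29 and 13.3 CPM in every library from 6 to 24 h. No library at 2 h or later reached the lowest at 1 h. The log2 fold change was -0.30 at 1 h (SE 0.09, adjusted p = 0.00734), -1.17 at 2 h (SE 0.09), -0.92 at 6 h (SE 0.09), -1.25 at 21 h (SE 0.10) and -1.14 at 24 h (SE 0.10). Its fold lay near 2, and Espnl was called at 2, 18, 21 and 24 h and not from 6 to 15 h, where the log2 fold change was between -0.92 and -0.84. At 18 h replicates gave 10.5 and 8.29 CPM, and that call was lost in 1 of 13 alternatives, as were the calls at 2 and 24 h. Without the second replicate at 12 h the value there was -1.01 and Espnl was called.

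The time to the midpoint of the fall, interpolated on the log2 scale between 0 h and the lowest time point, was 44.2 min for Lrrfip1, 60.8 min for Ramp1, 82.8 min for Espnl and 15.7 h for Per2. Each replicate on its own gave 43.6 and 44.7 min for Lrrfip1, 59.0 and 67.0 min for Ramp1, and 83.2 and 89.0 min for Espnl, so that the values of these genes did not overlap. These times are a description without a test. Counts cover whole genes, which differ in length (130.208 kb for Lrrfip1, 45.375 kb for Ramp1 and 26.232 kb for Espnl), and the part of length in the times was not tested. The times also depend on the scale. On the linear CPM scale the time was 38.8 min for Lrrfip1, 37.5 min for Ramp1 and 77.1 min for Espnl, which turned the order of the first pair. At 1 h Lrrfip1 had reached 76.7% of its deepest log2 fall, Ramp1 49.7% and Espnl 23.4%. Their depths were -1.36 (at 2 h), -6.25 (at 15 h) and -1.26 (at 21 h) in log2 CPM. On the log2 scale, though not on the linear one, the order of times followed the order of the genes along the chromosome. Annotated starts lie 181.085 kb (Ramp1) and 323.338 kb (Espnl) from that of Lrrfip1, while the tested genes between them (Ube2f and Scly) were not called. The midpoint also depends on depth. Ramp1 had a larger log2 fall than Lrrfip1 at 0.5 h (-0.65 against -0.35) and at 1 h (-3.11 against -1.05). The order rests on few genes, and a link to position was not tested.

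**Figure D2:**
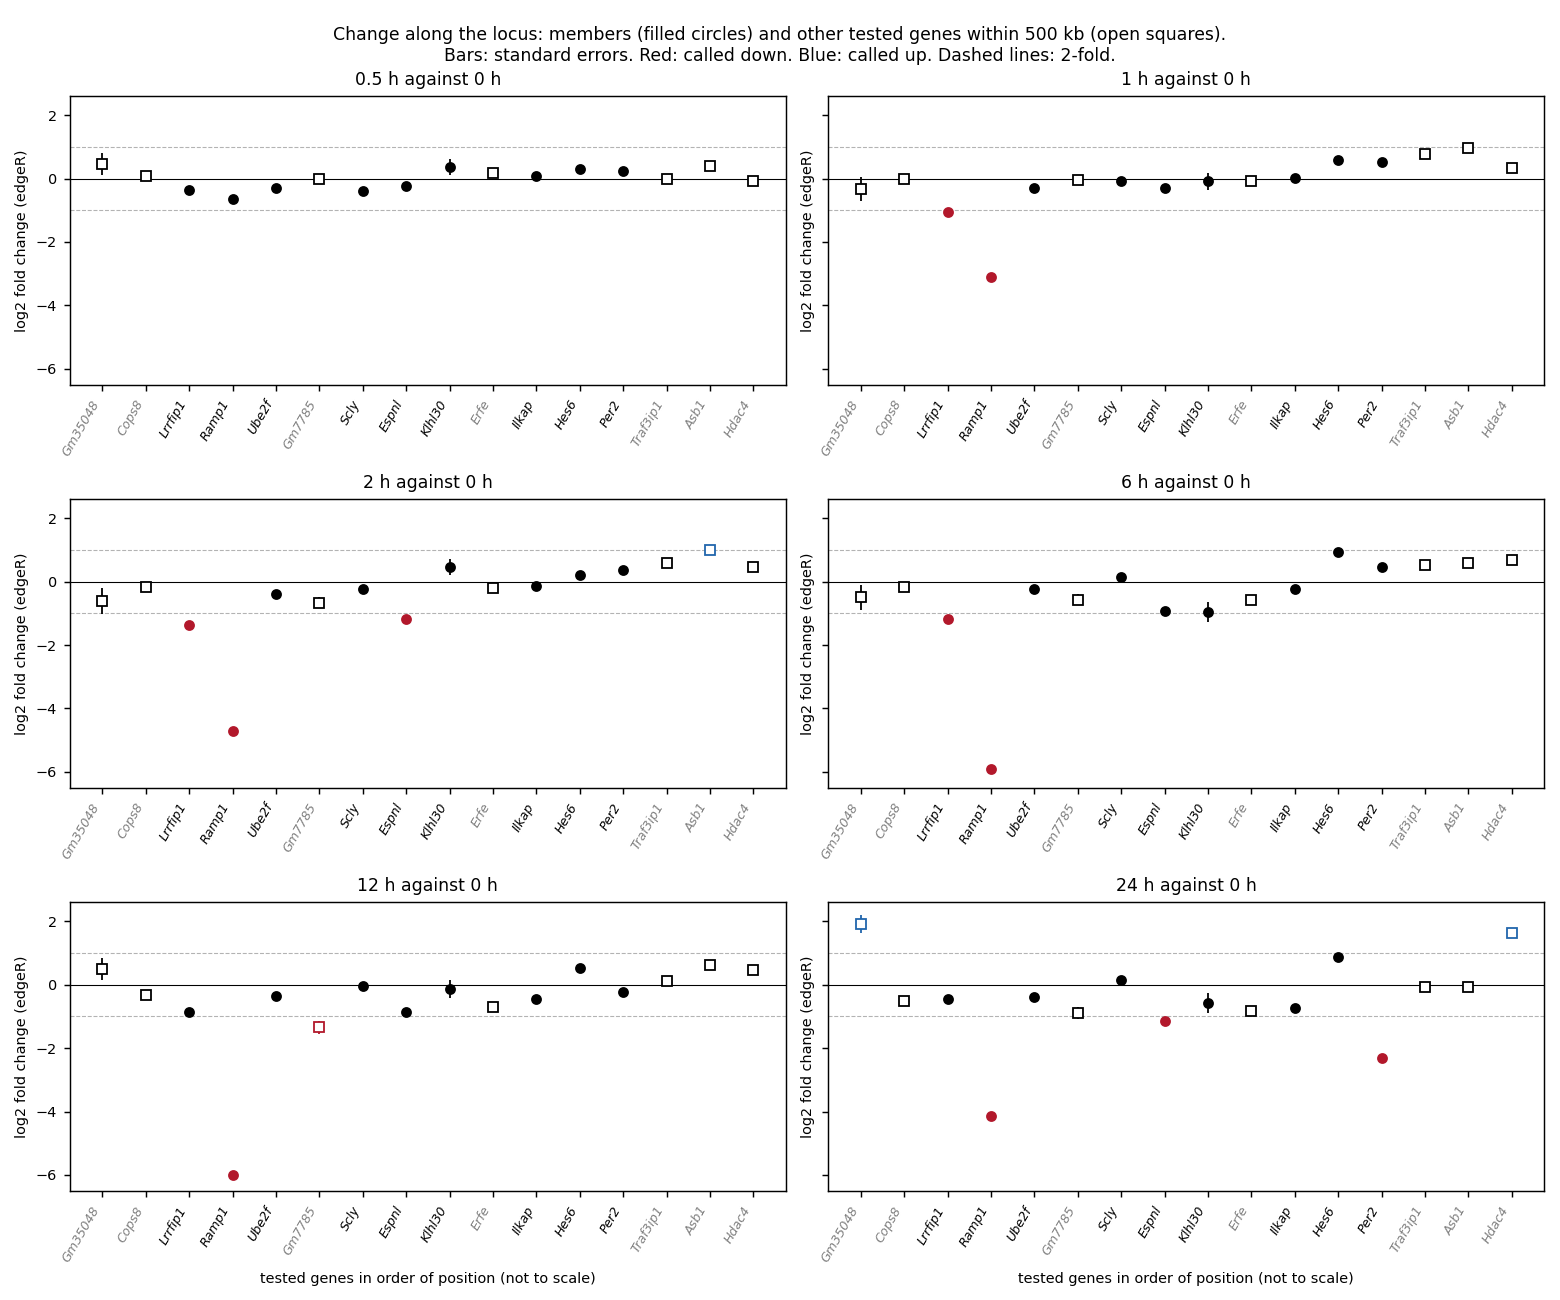
Log2 fold change against 0 h (vertical axes, with standard errors) for the 9 genes tested (filled circles) and the 7 other tested genes within 500 kb (open squares, gray names), in order of position, at 6 time points. Red marks called down and blue called up. Lrrfip1, Ramp1 and Espnl were below the 2-fold line at 2 h, with Ube2f and Scly between Ramp1 and Espnl at -0.40 and -0.22.

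Ube2f, Scly, Klhl30 and Rbm44, which lie among these 3 genes or next to them, did not pass the fold limit at any time point at which they were tested. Ube2f (ENSMUSG00000034343, 91250304 to 91290337) starts 25.108 kb after the end of Ramp1. It had 78.5 and 81.5 CPM (0 h), 63.3 and 65.8 (0.5 h), and 57.5 to 67.6 in all libraries from 1 h on. All induced libraries were thus below both at 0 h, and its log2 fold change of -0.47 to -0.25 had an adjusted p of at most 2.41e-05 at all 9 time points. Scly (ENSMUSG00000026307, 91298338 to 91321075) ends 1.0 kb before Espnl begins. Its replicates gave 16.4 and 15.8 CPM (0 h) and 12.7 and 12.0 (0.5 h), and 13.1 to 18.4 CPM from 1 h on. The log2 fold change was -0.38 at 0.5 h (SE 0.08, adjusted p = 0.00125), -0.22 at 2 h (adjusted p = 0.0149) and 0.15 at 24 h (adjusted p = 0.0683, and -0.11 when scaled by library totals). Scly overlaps Gm17090 on the opposite strand over 15984 bp, and Gm17090 had 0 to 6 counts in each library.

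Klhl30 (ENSMUSG00000026308, 91351016 to 91362416) begins 2.71 kb after the end of Espnl. It had 31 and 21 counts (0 h), 29 and 35 (2 h), 14 and 12 (6 h), and 15 and 12 (24 h), or 0.259 to 0.812 CPM in all libraries. Its log2 fold change was 0.45 at 2 h (SE 0.25), when Espnl was at -1.17, and -0.97 at 6 h (SE 0.31, adjusted p = 0.00971). That value rested on single libraries. Without the second replicate at 0 h it was -1.19 and Klhl30 was called, while without the first it was -0.70 (edgeR adjusted p = 0.148), and it also missed the threshold without either of the replicates at 6 h. Rbm44 (ENSMUSG00000070732, 91145089 to 91170795) lies between Lrrfip1 and Ramp1, 16.145 kb from the first and 9.027 kb from the second. Its 4 and 1 counts (0 h) leave a fall not detectable at this depth, and with at most 7 counts in any of the 20 libraries no large rise was seen.

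Beyond Klhl30, Per2 took the opposite course at first. Per2 (ENSMUSG00000055866, 91415982 to 91459324, 43.343 kb) had 16.9 and 17.6 CPM (0 h), 20.7 and 20.4 (0.5 h), 25.0 and 24.1 (1 h), 22.6 and 22.1 (2 h), and 24.7 and 23.2 (6 h). It then had 15.0 and 14.6 CPM (12 h), 8.99 and 8.49 (15 h), 5.60 and 4.57 (18 h), 4.55 and 4.48 (21 h), and 3.76 and 3.20 (24 h). Every library from 0.5 to 6 h was above both at 0 h, and every library from 12 h on was below them. The log2 fold change was 0.51 at 1 h (SE 0.07, adjusted p = 1.53e-06), 0.47 at 6 h (SE 0.07), -0.98 at 15 h (SE 0.08), -1.75 at 18 h (SE 0.08) and -2.31 at 24 h (SE 0.09), which left 20.2% of the 0 h level. Without the first replicate at 0 h or the first at 15 h, the value at 15 h was -1.01 or -1.02 and Per2 was called there. Of 16601 genes, 236 (1.42%) were likewise higher at 1 h by adjusted p alone and called down at 24 h. The early rise was not particular to Per2. The tested genes beyond it within 500 kb were also higher at 1 h, with log2 fold changes of 0.78 (Traf3ip1), 0.95 (Asb1) and 0.34 (Hdac4). Cops8, Gm35048, Gm7785 and Erfe, the other tested genes within 500 kb, had lower means at 1 h than at 0 h. Those other than Asb1 were named after their values were seen. By adjusted p alone, 19.2% of all genes were higher at 1 h, and a link of the rise to position was not tested.

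Hes6 (ENSMUSG00000067071, 91411483 to 91414038), 1.944 kb from Per2, rose by adjusted p without passing 2-fold. Its replicates gave 7.09 and 7.23 CPM (0 h), 11.1 and 10.4 (1 h), 8.61 and 7.89 (2 h), 14.5 and 13.1 (6 h), and 13.4 and 12.9 (24 h). All induced libraries were above both at 0 h. The log2 fold change was 0.59 at 1 h (SE 0.09), 0.20 at 2 h (SE 0.10, adjusted p = 0.0873), 0.95 at 6 h (SE 0.09) and 0.88 at 24 h (SE 0.09). Without the second replicate at 6 h the value there was 1.02 and past the fold limit. Ilkap (ENSMUSG00000026309, 91373861 to 91398815), the most highly transcribed per kb, had 169 and 170 CPM (0 h), 176 and 181 (0.5 h), 153 and 156 (2 h), 129 and 121 (12 h), and 98.5 and 104 (24 h). Its log2 fold change was -0.13 at 2 h (SE 0.04, adjusted p = 0.00613) and -0.74 at 24 h (SE 0.04), or 59.8% of the 0 h mean. Ilkap overlaps Erfe on the opposite strand over 357 bp, and Erfe had 145 to 462 counts in each library.

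With the adjusted p alone, 4 of the 9 were lower at 0.5 h (Lrrfip1, Ramp1, Ube2f and Scly), against 4.74% of all genes, and 0 were higher, against 3.70%. These are the first 4 of the genes tested in order of position, which was seen after the values, and a link to position was not tested. The next gene, Espnl, was at -0.23 at 0.5 h and missed the threshold (edgeR adjusted p = 0.0861). Scly was no longer lower by this measure at 1 h (-0.09, edgeR adjusted p = 0.335). At 1 h 4 were lower (Lrrfip1, Ramp1, Ube2f and Espnl), against 17.1%, and 2 were higher (Hes6 and Per2), against 19.2%. At 2 h 5 were lower (Lrrfip1, Ramp1, Ube2f, Espnl and Ilkap), against 23.8%, and 1 was higher (Per2), against 23.9%. At 6 h 6 were lower (the same 5 and Klhl30), against 27.3%, and 2 were higher (Hes6 and Per2), against 30.0%. From 12 h on 6 were lower (Lrrfip1, Ramp1, Ube2f, Espnl, Ilkap and Per2) and 1 was higher (Hes6) at each time point. The share of all genes that were lower was 29.5% (12 h), 32.6% (15 h), 36.0% (18 h), 36.0% (21 h) and 36.1% (24 h), and that of genes that were higher was 31.2% (12 h), 33.1% (15 h), 35.3% (18 h), 35.7% (21 h) and 35.4% (24 h).

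Steps from one time point to the next, called at an adjusted p under 0.01 in edgeR, separate when each gene moved. From 0 to 0.5 h 4 genes stepped down, as given above, by -0.35 (Lrrfip1), -0.65 (Ramp1), -0.31 (Ube2f) and -0.38 (Scly) on the log2 scale. From 0.5 to 1 h 2 stepped down (15.7% of all genes did), Lrrfip1 by -0.69 and Ramp1 by -2.46, and 2 stepped up (16.3%), Scly by 0.29 and Per2 by 0.26, neither of which passed when scaled by library totals. From 1 to 2 h 5 stepped down (13.3%) and 0 stepped up (9.07%). The 5 were Lrrfip1 (-0.32), Ramp1 (-1.61), Espnl (-0.88), Ilkap (-0.16) and Hes6 (-0.39). The fall of Espnl, of Ilkap and of Hes6 in this interval came after one in which none of them passed the test.

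From 2 to 6 h Ramp1 (-1.20) and Klhl30 (-1.42) stepped down (14.8% of all genes), while Lrrfip1 (0.18), Ube2f (0.16), Scly (0.37) and Hes6 (0.74) stepped up (19.6%), although Ube2f did not pass with DESeq2's size factors (0.13, adjusted p = 0.0188). Lrrfip1 was thus on its way up in the interval in which Ramp1 still fell. From 6 to 12 h Lrrfip1 rose by a further 0.32 (14.0% of all genes stepped up), and Ilkap (-0.20), Hes6 (-0.42) and Per2 (-0.70) stepped down (13.5%). Per2 and Ilkap fell again from 12 to 15 h, by -0.76 and -0.18 (10.0% down, 9.58% up), and Per2 and Espnl from 15 to 18 h, by -0.77 and -0.34 (16.1% down, 13.0% up), the latter with an adjusted p of 0.00967 that did not pass with DESeq2's size factors (0.0122) or the replicate block (0.0127). From 18 to 21 h none stepped (5.31% of all genes down, 7.10% up), and from 21 to 24 h Ramp1 stepped up by 0.89 (adjusted p = 0.000408), as 4.06% of all genes did.

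**Figure D3:**
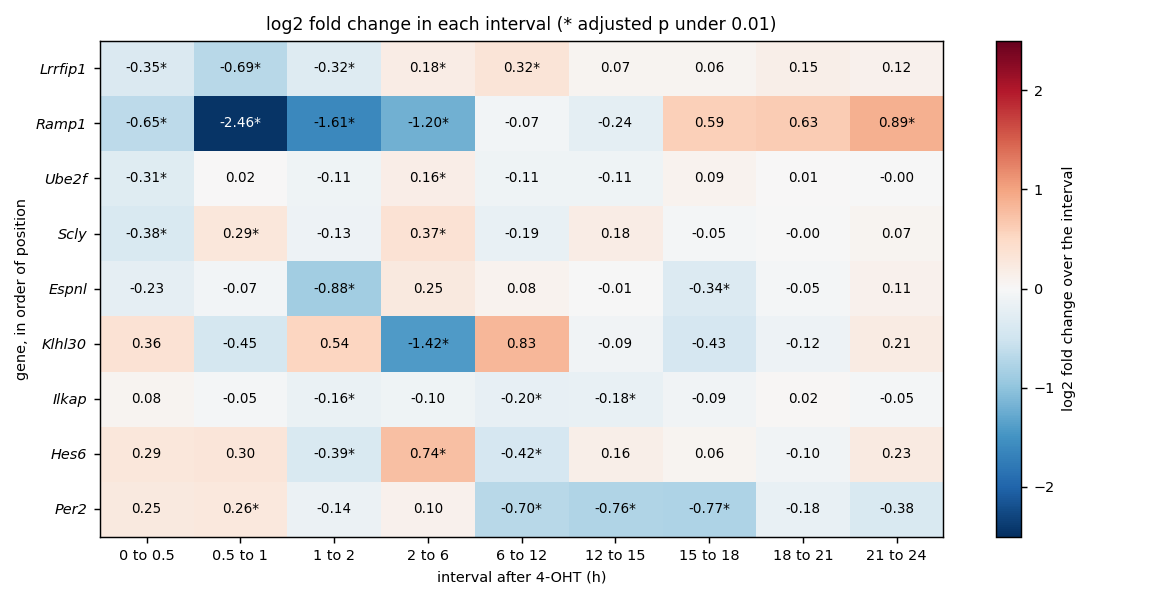
Log2 fold change over each of the 9 intervals (columns, h after 4-OHT) for the 9 genes tested (rows, in order of position), as color and number, with an asterisk at an adjusted p under 0.01 in edgeR. The deepest step is Ramp1 from 0.5 to 1 h (-2.46), Espnl has its step from 1 to 2 h (-0.88), and Per2 falls in 3 intervals from 6 to 18 h.

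Part of the early fall was regained. Between 6 and 24 h Lrrfip1 rose by 0.71 (SE 0.05) and Ramp1 by 1.80 (SE 0.16) on the log2 scale, where 29.5% of all genes rose by adjusted p, and Ilkap (-0.50, SE 0.04) and Per2 (-2.79, SE 0.09) fell, where 30.0% of all genes fell. Scaled by library totals, 6 of the 9 fell in this comparison. Ramp1 was still at 5.74% of its 0 h level at 24 h. Espnl did not pass this test, with 52.8% of its 0 h level at 6 h and 45.5% at 24 h. Of 1147 genes called down at 2 h, 387 were higher at 24 h than at 6 h by adjusted p.

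Whether adjacent genes moved by different amounts was tested on the ratio of their counts within each library, which does not depend on scaling. The 2 libraries at 0 h were set against the 18 induced libraries, which are 9 different time points and not replicates of 1 condition, in a two-sided exact permutation test whose smallest p is 0.0105, from 190 choices of 2 libraries. Pairs were called at an adjusted p under 0.05, as no pair could have met the 0.01 used for single genes. Among 9 pairs, a pair at the smallest p passed only if another pair also reached it. Passing or not thus says little about a single pair. The ratio of Ube2f to Ramp1 was higher by 4.24 on the log2 scale in induced libraries, and above both 0 h values in 18 of 18 (exact permutation p = 0.0105, adjusted over 9 pairs 0.0474). The ratio of Hes6 to Ilkap was higher by 1.00, likewise in 18 of 18 (exact permutation p = 0.0105, adjusted 0.0474). The ratio of Espnl to Scly differed by -0.87, was below both 0 h values in 16 of 18 libraries, and did not pass (exact permutation p = 0.0632, adjusted 0.0947). In the 2 libraries at 0.5 h it was above both 0 h values.

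The other 6 pairs did not pass either. The ratio of Ramp1 to Rbm44 differed by -4.47 (exact permutation adjusted p = 0.0632), Scly to Ube2f by 0.34 and Klhl30 to Espnl by 0.61 (both 0.0947), Per2 to Hes6 by -1.23 (0.189), Rbm44 to Lrrfip1 by 0.69 (0.497) and Ilkap to Klhl30 by -0.12 (0.674). As Rbm44 had so few counts, the pairs were also formed without it, a choice made after the values were seen. The ratio of Ramp1 to Lrrfip1 then differed by -3.78 in induced libraries and was below both 0 h values in 18 of 18 (exact permutation p = 0.0105, adjusted over 8 pairs 0.0281). Per2 over Hes6 was above both 0 h values in 2 of the 18 libraries, those at 2 h, and below them in 16.

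**Figure D4:**
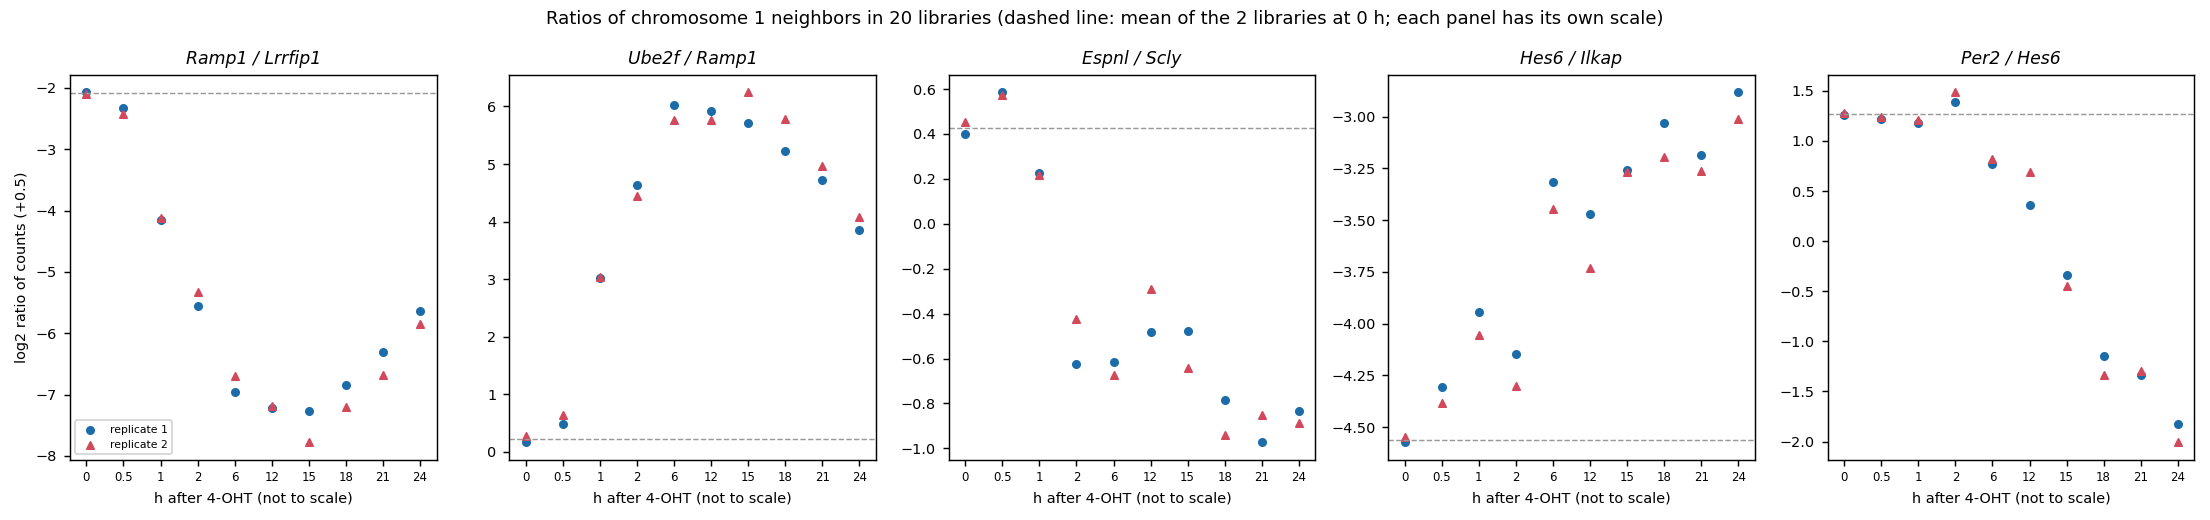
Log2 ratio of counts (each plus 0.5) of 5 pairs of neighbors in the 20 libraries against hours after 4-OHT, with circles and triangles for the replicates and a dashed line at the 0 h mean. Ramp1 over Lrrfip1 is below, and Ube2f over Ramp1 and Hes6 over Ilkap above, both 0 h values in all 18 induced libraries, while Per2 over Hes6 is above them at 2 h and well below them from 6 h on.

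Of 26 other counted genes with any base within 500 kb, 7 were tested, 2 of them between members, and 0 were called down at 0.5, 1, 2, 6, 18 or 24 h. With 7 genes, and 0.410% to 20.1% of all genes called down at these time points, the count lay near the background. Asb1, which lies beyond Per2 from 91540544 on, was called up at 2 h with a fold right at the limit. Its replicates gave 11.4 and 11.3 CPM (0 h) and 22.5 and 22.8 (2 h), with a log2 fold change of 1.00 (SE 0.06), and 6 of 13 alternatives did not call it. At 12, 15 and 21 h 1 was called down, Gm7785, a processed pseudogene between Ube2f and Scly with 1.43 and 1.58 CPM (0 h) and a log2 fold change of -1.35 at 12 h. Hdac4, which encodes a histone deacetylase, was called up from 18 h on, with 305 and 305 CPM (0 h) and 968 and 938 (24 h), with a log2 fold change of 1.64 (SE 0.03). Gm35048 was called up from 15 h on, at 0.454 and 0.338 CPM (0 h) and 1.43 and 1.57 (24 h). These last 3 genes lie outside the rule for naming genes and were named after their values were seen.

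Relatives of the members were counted in lists written by hand. For Per2, 16 of 21 other clock genes were tested. At 2 h 1 was down and 2 were up, at a median log2 fold change of -0.02 against 0.03 for all genes. Of all genes 6.91% were down and 6.25% up at 2 h, and 20.1% and 20% at 24 h, and the counts of all the lists given here are to be read against these shares, as each rests on few genes. Nr1d1, a repressor of the clock's positive limb, had 1.01 ± 0.201 CPM at 0 h and 0.216 ± 0.174 at 2 h (log2 fold change -2.25, SE 0.38). This value rested on few counts, and was -3.39 without the first and -1.56 without the second replicate at 2 h. Bhlhe41, a repressor that acts on the same promoters as the clock, had 2.48 ± 0.0677 CPM at 0 h and 5.96 ± 0.759 at 2 h (log2 fold change 1.27, SE 0.11), a call lost in 1 of 13 alternatives. Rora, an activator, was at 0.552 ± 0.0473 and 1.11 ± 0.166 CPM (1.01, SE 0.26), a call lost in 3 of 13 alternatives. At 24 h, when Per2 was at its lowest, 5 clock genes were down and 2 up, with a median of 0.21.

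For Ramp1, 5 of 10 genes of CGRP and related receptors were tested. None was called at 2 h, and at 24 h 1 was down and 2 were up, with a median log2 fold change of -0.03 against -0.01 for all genes. Calcrl, the receptor that RAMP proteins accompany, was at 52.3 ± 2.15 CPM at 0 h, 53.1 ± 0.0776 at 2 h and 230.3 ± 13.0 at 24 h (log2 fold change 2.14 at 24 h, SE 0.05). Ramp3, another member of the RAMP family, had 1 count in each 0 h library and 702 and 894 counts (24 h), a ratio of 1028 after scaling to library size, with a 95% counting interval of 284 to 8499. Calcr, the calcitonin receptor, had 15 and 8 counts (0 h) and 3 and 2 (24 h) (log2 fold change -1.79, SE 0.59), and 6 of 11 alternatives did not call it.

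For Ube2f, all 19 genes of NEDD8 conjugation were tested, of which 0 were down and 1 was up at 2 h (median 0.05). This was Dcun1d1, a cofactor of cullin neddylation, at 160.0 ± 3.50 CPM at 0 h and 338 ± 5.92 at 2 h (log2 fold change 1.08, SE 0.04), a call lost in 1 of 13 alternatives. At 24 h 1 was down and 1 up, with a median of -0.17. For Scly, 17 of 18 genes of selenocysteine metabolism were tested, with none called at 2 h (median 0.22) and 1 down and 3 up at 24 h (median -0.13). Selenop, the selenium carrier of plasma, was at 0.297 ± 0.0693 CPM at 0 h and 19.7 ± 0.0658 at 24 h, Selenot at 54.1 ± 0.615 and 193 ± 7.14, and Txnrd1, a thioredoxin reductase, at 510.0 ± 0.228 and 227 ± 2.42.

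For Hes6, 3 of 6 HES and HEY repressors were tested, with none called at 2 h (median -0.24) and 2 down and 1 up at 24 h (median -2.04). Hes1 had 218 and 211 counts (0 h) and 34 and 26 (24 h) (log2 fold change -2.47, SE 0.18), Hes5 had 9 and 13 counts and then 2 and 2 (a call lost in 6 of 11 alternatives), and Heyl had 0 counts at 0 h and 19 and 12 (24 h), at least 13.3-fold higher against a floor of 3 counts over the group, which leaves out the counting error at 24 h. With that error included, the lower 95% limit was 10.2-fold. Of 6 tested among 8 paralogs and partners of Lrrfip1, Espnl and Ilkap, 1 was down and 0 were up at 2 h (median -0.21), and 2 were down and 1 up at 24 h (median 0.30). Parvb, a partner of integrin-linked kinase, was at 1.50 ± 0.169 CPM at 0 h and 0.601 ± 0.000938 at 2 h (log2 fold change -1.32, SE 0.24), a call lost in 1 of 12 alternatives. Lrrfip2, the paralog of Lrrfip1 and named after its values were seen, was at 79.4 ± 1.12 CPM at 0 h, 121.9 ± 0.563 at 2 h and 232 ± 3.36 at 24 h (log2 fold change 1.55 at 24 h, SE 0.04).

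The profiles most like those of the early falling genes were found by Pearson correlation of mean log2 CPM over the 10 time points with 12055 genes that averaged at least 1 CPM, as a description of points that share libraries. Nearest to Ramp1 were Rrbp1 (r = 0.989), Arhgap23 (0.985) and Ccdc148 (0.982), whose log2 fold changes at 2 h were -0.82, -3.16 and -3.53. Nearest to Lrrfip1 were Fes (0.988), Mgat4b (0.987) and Fchsd2 (0.983), at -1.96, -1.47 and -1.84. Nearest to Espnl were Slc25a44 (0.985), Tgif2 (0.981) and Fam234b (0.973), at -0.74, -1.03 and -0.59. None of these 9 is on chromosome 1, which says little, as the share of the 12055 genes on that chromosome was not counted. Among the members, by the same measure, r was 0.666 for Lrrfip1 and Ramp1, 0.823 for Ramp1 and Espnl, and 0.471 for Lrrfip1 and Espnl. These values were not particular to the 3 genes. Pairs with genes that were not called reached 0.710 (Ramp1 and Ube2f) and 0.790 (Espnl and Ilkap). All pairs of tested members ran from -0.859 (Scly and Klhl30) to 0.902 (Ilkap and Per2).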

How the data were processed

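Chromatin-associated RNA was sequenced from B3 cells in 20 libraries, 2 at each of 10 time points, as 75 bp read pairs from a directional kit with rRNA depletion. Per the study's methods and the labels, the authors used STAR within nf-core/rnaseq for alignment to mm10. Reads were then assigned to genes, introns included, by featureCounts, and raw counts were deposited. Strand setting and annotation release of the counting are not given in the sources used here. Totals were 33296158 to 46868954 counts, and counting error is all that depth describes.

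Groups and replicate numbers are from the labels. Where labels do not name separate cultures, p-values measure only the spread between these samples, which may be technical. The 16601 genes that reached 10 counts in 2 or more libraries were fitted in edgeR 4.0.16 (R 4.3.3) with TMM factors, the quasi-likelihood test and time point as a factor, over all 20 libraries, with Benjamini-Hochberg adjustment. CPM values are TMM-normalized. Neighbor ratios used counts plus 0.5 and profiles CPM plus 0.1. Positions and overlaps are from GENCODE M21 (GRCm38), which holds 55240 of the identifiers. In counts simulated from these libraries for 2 h, 198 of 200 changed genes were called, as were 3 unchanged ones.

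The members and lists were chosen with earlier results of these data known. Named genes are all members, the 3 genes most like Ramp1, Lrrfip1 and Espnl in profile, other genes of the region called at 2 h, and in each list the 3 called genes with the largest absolute change at 2 h, or at 24 h where none was called at 2 h. The alternatives comprised scaling by library totals or by DESeq2's size factors, DESeq2 1.42.0 as the test, no filter, a minimum of 10 counts in all libraries, a block for the replicate number, an adjusted p under 0.05, a test against 2-fold, only the 4 libraries compared, leaving out each replicate, counts plus 5, other definitions of the midpoint time, and windows of 250 and 1000 kb. The other assays of the study were not analysed here.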

Additional observations from a re-analysis of the deposited data

Results flagged for a closer look

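Between 6 and 24 h, 4 of the 9 genes tested changed by edgeR's adjusted p, 2 up and 2 down, where 29.5% of all genes were up and 30.0% down, so that the share of the 9 did not exceed the background. Scaled by library totals, 6 were down. Lrrfip1 was higher by 0.71 on the log2 scale (adjusted p = 5.75e-12) and Ramp1 by 1.80 (adjusted p = 2.90e-09). Ilkap was at -0.50 (adjusted p = 3.16e-10) and Per2 at -2.79 (adjusted p = 3.90e-17).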

How the results depend on the processing

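Of 1633 values of single genes under alternatives, 1569 kept direction and call, 44 lost the call, 10 gained it and 10 changed sign. With library totals, which shift the median log2 fold change of all genes by -0.12 at 18 h, -0.23 at 21 h and -0.26 at 24 h, Scly was at -0.039, -0.15 and -0.11 at these time points, 2 genes were called down at 15 h, 0 stepped up from 0.5 to 1 h, 6 fell from 6 to 24 h, and the midpoint time was 1.51 h for Espnl and 15.9 h for Per2. All genes then split into 4260 down and 2603 up at 24 h, against 3329 and 3323. DESeq2's size factors left 1 gene stepping down from 15 to 18 h (Per2). The test against 2-fold left 1 gene called down at 1 h (Ramp1). On the linear scale midpoint times were 0.647 h for Lrrfip1, 0.625 h for Ramp1, 1.28 h for Espnl and 14.2 h for Per2. With counts plus 5, Rbm44 over Lrrfip1 (0.94, exact permutation adjusted p = 0.0474) and Ramp1 over Rbm44 (-4.64, adjusted p = 0.0316) passed. Within 250 kb 0 other genes were called up at 24 h. The cause was not tested in these cases.

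Leaving out 1 library gave 1 to 2 genes called down at 12 h (2 without the second replicate at 12 h) and at 15 h (2 without the first at 0 h or at 15 h), and 0 to 1 called up at 6 h (Hes6, without the second at 6 h). Midpoint times of single replicates were 0.983 to 1.12 h for Ramp1 and 1.39 to 1.48 h for Espnl. Klhl30 ran from -0.37 to 0.18 at 1 h, from -0.51 to 0.13 at 12 h and from -0.46 to 0.040 at 15 h, and Scly from -0.10 to 0.0090 at 12 h and from -0.0146 to 0.18 at 18 h. Same-numbered replicates did not deviate together over 12056 genes (mean correlation 0.00461 over 45 pairs of time points, -0.513 to 0.298), so the numbers were not taken to pair samples. The replicate block gave 1 step up from 0 to 0.5 h and 1 step down from 15 to 18 h and changed no other count by over 1.5 times. A midpoint time of Per2 within 6 h gave no value, as it was not below 0 h. Klhl30 and Rbm44 are limited by depth.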
